A study of Mus musculus with 15 samples.

Results

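The genes described here are the constitutive proteasome genes of the mouse cortex: the subunits of the 20S core and of its 19S regulatory particle, the chaperones that assemble both, the activators and the inhibitor. They are the rows of the count table whose symbol is Psm followed by a letter from a to g and a number, leaving out Psmb8, Psmb9 and Psmb10, which encode the interferon-inducible catalytic subunits of the immunoproteasome. The symbol pattern matched 48 of 53278 rows, and 45 remained after those 3 were left out. Of these 45 genes, 43 passed the filter on low counts and were tested among 18369 genes. Psma8 and Psmb11, known from testis and thymus, did not pass, with 3 to 7 and 3 to 13 reads per library.

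Bulk RNA sequencing was done on brain cortex of 15 male C57BL/6J mice aged 10 to 20 weeks, 1 library per mouse and 5 mice per group. The control group ate control food. The PLX3397 group ate food with PLX3397 for 9 days. PLX3397 is an inhibitor of the receptor CSF1R, on which the survival of microglia depends, and it is also known to inhibit other kinases, so that depletion of microglia and direct action of the drug on other cells cannot be told apart in this group. The repopulation group ate PLX3397 food for 9 days and control food for the next 9 days, so that every repopulation mouse had also received the drug. All 3 groups were of the same strain and carried no labelled genetic change.

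The proteasome degrades proteins that carry ubiquitin chains. Its 20S core is a stack of outer alpha rings and inner beta rings, and the beta rings hold the catalytic sites. The 19S particle caps the core with a base of ATPases, which unfold the substrate, and a lid, which removes the ubiquitin. In neurons the proteasome is known for its part in synaptic protein turnover, and genes of its subunits are known to be transcribed together, with the factor NRF1 (gene Nfe2l1) raising them when proteasome activity is short.

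The 5 promoter stretches below are shown because their genes stand for the responses described later. Psmb5 and Psmb6 encode catalytic subunits, Psmd14 encodes the deubiquitinase of the lid, and all 3 were lower after repopulation. Psmd1 was higher on PLX3397, and Psme4 was higher after repopulation. Each line gives the 250 bases before the transcription start from RefSeq on GRCm38.p6, in the direction of the gene, in lower case. Another annotation, GENCODE M21, begins Psmb5, Psmd1 and Psme4 inside these stretches, at chr14:54618022, chr1:86064387 and chr11:30771726. Distances to the start given below are therefore those of RefSeq only. Capitals mark the core of the antioxidant response element, TGACNNNGC, or the core of ETS-factor sites, CGGAAG, each searched on both strands, so that the second also appears as CTTCCG. The stretches lie at chr14:54617996-54618245, minus strand for Psmb5, chr11:70525107-70525356, plus strand for Psmb6, chr2:61711444-61711693, plus strand for Psmd14, chr1:86064369-86064618, plus strand for Psmd1 and chr11:30771525-30771774, plus strand for Psme4.
Psmb5: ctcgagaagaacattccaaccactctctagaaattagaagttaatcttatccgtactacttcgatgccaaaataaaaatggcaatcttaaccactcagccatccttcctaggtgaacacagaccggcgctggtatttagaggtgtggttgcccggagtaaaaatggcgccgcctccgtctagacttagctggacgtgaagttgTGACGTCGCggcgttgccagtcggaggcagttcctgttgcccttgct
Psmb6: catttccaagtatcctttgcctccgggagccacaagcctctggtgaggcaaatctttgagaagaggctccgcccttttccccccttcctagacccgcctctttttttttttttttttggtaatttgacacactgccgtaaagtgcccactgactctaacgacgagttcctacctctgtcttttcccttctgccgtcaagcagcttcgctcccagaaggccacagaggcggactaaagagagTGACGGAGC
Psmd14: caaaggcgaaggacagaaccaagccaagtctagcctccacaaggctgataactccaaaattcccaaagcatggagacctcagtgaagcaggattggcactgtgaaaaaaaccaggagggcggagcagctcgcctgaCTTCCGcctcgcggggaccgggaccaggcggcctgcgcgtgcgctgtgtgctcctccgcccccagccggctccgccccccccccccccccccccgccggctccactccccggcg
Psmd1: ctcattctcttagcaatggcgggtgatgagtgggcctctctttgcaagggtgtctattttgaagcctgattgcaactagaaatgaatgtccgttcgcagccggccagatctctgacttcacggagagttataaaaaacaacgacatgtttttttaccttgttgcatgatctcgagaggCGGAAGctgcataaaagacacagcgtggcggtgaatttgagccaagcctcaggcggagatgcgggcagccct
Psme4: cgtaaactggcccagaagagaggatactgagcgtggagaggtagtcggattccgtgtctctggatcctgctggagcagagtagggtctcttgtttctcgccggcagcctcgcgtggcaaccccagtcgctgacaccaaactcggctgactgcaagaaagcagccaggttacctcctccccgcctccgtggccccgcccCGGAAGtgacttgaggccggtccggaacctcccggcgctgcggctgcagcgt

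Total counts per library were 23413551 to 48617851 in the 15 libraries. Values below are CPM, a gene's read count scaled to the total count of its library with TMM factors. Marker genes of neurons and of cerebral cortex were present in every library, with summed CPM of 6484 to 7414 for 6 neuronal genes and 554 to 729.8 for 5 cortical genes. The 8 microglial markers summed to 247 to 279 CPM in control libraries, 14.02 to 17.9 CPM in PLX3397 libraries and 286 to 318 CPM in repopulation libraries. Other marker sums are given beside the comparisons. In bulk cortex, fewer cells of a type and less RNA per cell cannot be told apart.

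Proteasome genes were detected at a wide range of levels. The median mean expression of the 43 tested genes was 51.9 CPM, against 13.8 CPM over all genes tested. Psmd10, Psme2 and the 4 core chaperone genes Psmg1 to Psmg4 were below the latter in every group, with group means from 2.40 CPM for Psmg4 on PLX3397 to 12.97 CPM for Psme2 in control. Per kilobase of exon, the most abundant was Psmc5, an ATPase of the 19S base, at 78.9 ± 3.58 CPM per kb in control (SD, n = 5). It was followed by the ATPase gene Psmc1 at 63.4 ± 1.70, the base scaffold gene Psmd2 at 52.2 ± 1.301, the ATPase gene Psmc3 at 44.6 ± 0.922 and Psmb5 at 40.2 ± 3.33 CPM per kb. Neighbours in this order differed by more than the sum of their SDs, by least for Psmc3 and Psmb5.

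The other catalytic genes lay lower, with Psmb7 at 12.5 ± 0.870 and Psmb6 at 21.8 ± 1.80 CPM per kb. Per kilobase of exon, the assembly chaperones among the members lay below the subunits they assemble. The lowest were Psmg3, a chaperone of the alpha ring, at 2.15 ± 0.211 CPM per kb, and Psmd9, a chaperone of the base, at 2.88 ± 0.274. Psmd5, another chaperone of the base, was at 6.02 ± 0.263 CPM per kb over 7230 bp of exon. Without division by length Psmd5 was not scarce, at 43.6 CPM in control beside 42.8 CPM for Psmb7. Exon lengths are of the union of all exons of a gene, so that these levels depend on how many of those exons the cortex uses.

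**Figure D1:**
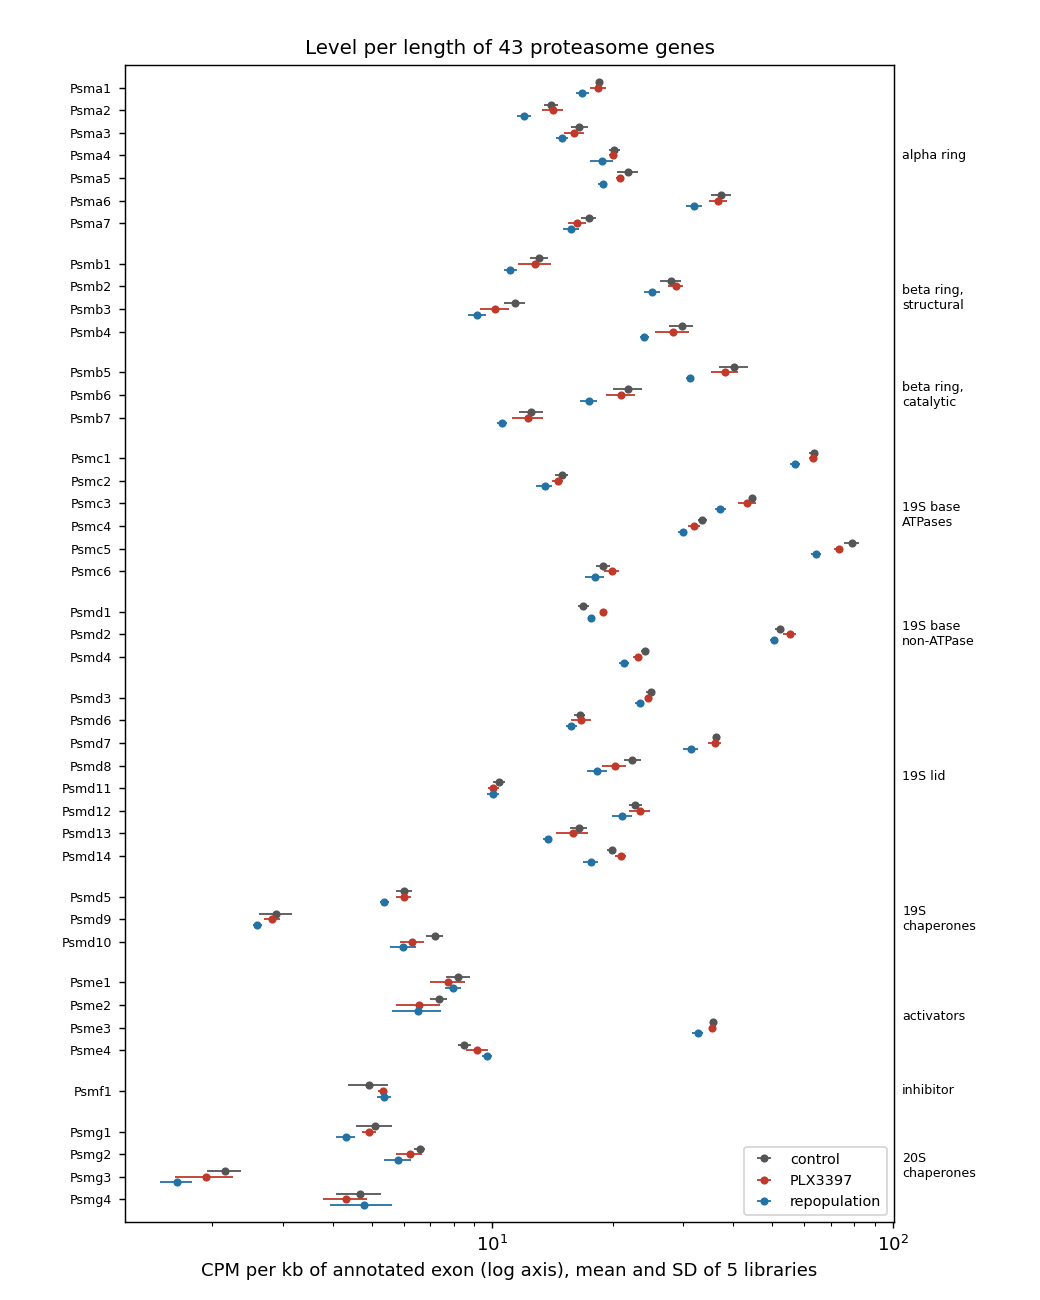
Level of the 43 tested proteasome genes in CPM per kb of annotated exon on a logarithmic axis, in order of role, with the mean (point) and SD (bar) of the 5 libraries of each group. Psmc5 stands highest in all 3 groups, and Psmg3 stands lowest.

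Cortex of mice on PLX3397 was compared with control cortex first, to see what 9 days of the drug did. Few proteasome genes differed from control. Psmd1, the large scaffold subunit of the 19S base, rose, and the ATPase gene Psmc5 and the lid gene Psmd8 fell, which makes 1 higher and 2 lower of 43. Over all genes tested, 8.19% were called higher and 8.35% lower, so the members' shares were below the background in both directions. The median log2 fold change was -0.03 for the members and -0.0019 over all genes tested.

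Psmd1 was at 121, 126, 123, 126 and 117 CPM in the control libraries 1 to 5 and at 137, 141, 136, 135 and 137 CPM on PLX3397. Every PLX3397 library lay above every control library. On the log2 scale it differed by 0.16 (SE 0.031, edgeR adjusted p = 5.13e-04). In this comparison, 4.99% of all genes tested had every PLX3397 library above every control library, and Psmd1 was the only member that did. Psmd1 shares 252 bp of exon with Htr2b and 301 bp with Gm21972, and counts in shared stretches are uncertain because the labels do not say whether strand was used in counting.

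Psmc5 was at 113, 109, 117, 104 and 108 CPM in control and at 102, 106, 101, 102 and 99.1 CPM on PLX3397, and the groups overlapped. It changed by -0.11 (SE 0.036, edgeR adjusted p = 0.0359) on the log2 scale. Psmd8 was at 70.8, 67.5, 72.8, 64.2 and 66.8 CPM in control and at 59.7, 64.00, 59.1, 67.9 and 57.8 CPM on PLX3397, again with overlap through PLX3397 library 4, and it changed by -0.15 (SE 0.049, edgeR adjusted p = 0.0362). The Psmc5 call was lost without control 1 or 3 or PLX3397 library 3, 4 or 5, and the Psmd8 call without control 1, 2 or 3 or PLX3397 library 1, 3 or 5, with log2 fold changes of -0.13 to -0.09 and -0.19 to -0.13 over all libraries left out in turn. Both were lost when trends with gene length and GC content were taken out, at -0.01 and -0.06. The Psmd1 call was kept in each of these fits.

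None of the 14 genes of the 20S core was called by edgeR on PLX3397, and 2 of them were lower at an unadjusted p under 0.05. DESeq2 called 1 of the 14 lower and 0 higher. The catalytic genes had intervals that included 0. For Psmb5, whose product cuts after large hydrophobic residues, the log2 fold change was -0.08 with a 95% interval of -0.20 to 0.03. It was -0.06 (-0.18 to 0.06) for Psmb6, whose product cuts after acidic residues, and -0.03 (-0.15 to 0.08) for Psmb7, whose product cuts after basic residues.

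The largest differences among members that were not called were in Psmd10, a chaperone of the base, and in Psmb3, a structural beta subunit. Psmd10 was at 10.02 to 11.1 CPM in control and 8.33 to 9.83 CPM on PLX3397, where the libraries did not overlap, with a log2 fold change of -0.19 (SE 0.073, edgeR adjusted p = 0.0788). It was the only member with every PLX3397 library below every control library, against 5.38% of all genes tested. Psmb3 was at 23.98 to 28.4 CPM in control and 20.9 to 26.2 CPM on PLX3397, with a log2 fold change of -0.17 (SE 0.059, edgeR adjusted p = 0.0512).

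Markers of several cell types moved on PLX3397, and their part in these few calls was not tested. All 8 microglial markers and all 4 markers of oligodendrocyte precursors were lower, as were 3 of 4 endothelial markers, and 4 of 5 oligodendrocyte markers were higher (summed CPM 3915 to 4111 in control and 4153 to 5083 on PLX3397). Of the neuronal markers 1 of 6 was higher and 1 lower, and 1 of 5 astrocyte markers was higher.

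**Figure D2:**
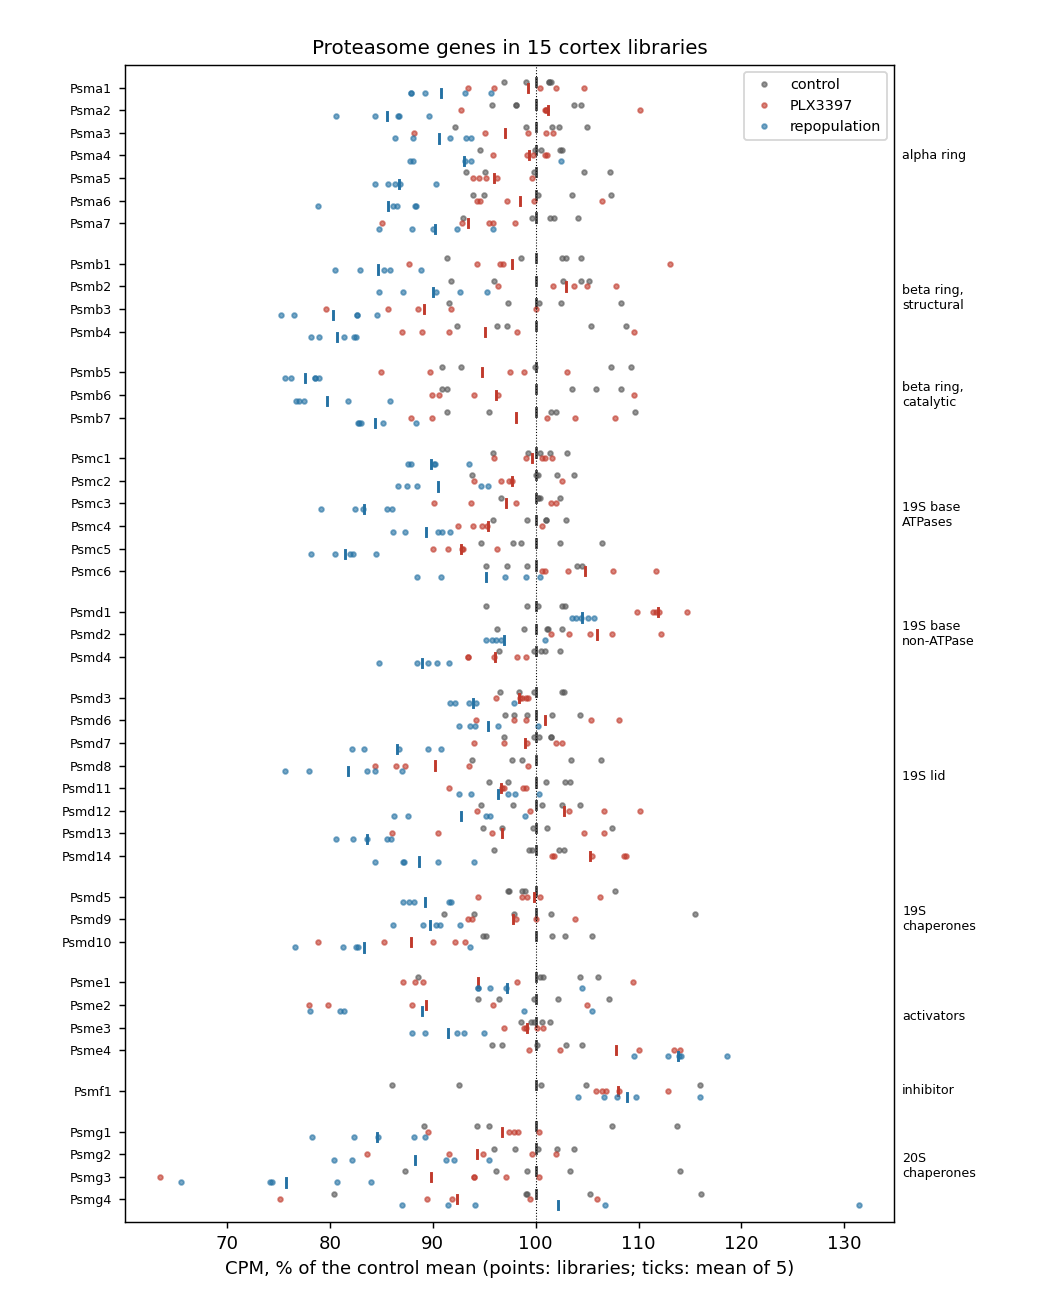
Each row is 1 of the 43 tested proteasome genes, in order of role, and each point is 1 library, placed by its CPM in percent of the mean of the 5 control libraries, with ticks for the group means. Repopulation points lie left of the control points for most subunits of the core and of the 19S particle, and right of them for Psmd1 and Psme4.

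The second comparison, repopulation against PLX3397, asks what changed once the drug was withdrawn and microglia returned. Withdrawal of the drug, the return of microglia and the 9 further days cannot be told apart in it. Most proteasome genes fell: 24 of 43 were lower and 0 were higher by edgeR, against 8.98% of all genes tested called lower and 7.61% called higher. No member was higher at an unadjusted p under 0.05 either, and DESeq2 called 25 lower and 0 higher. The median log2 fold change of the members was -0.14, against 0.00084 over all genes tested, and 39 of 43 were below 0. In 22 members every repopulation library lay below every PLX3397 library, which held for 6.24% of all genes tested, and in 0 every library lay above, against 5.57%. The members' median level was higher than that of all genes tested (51.9 against 13.8 CPM). Small changes are more readily called at higher counts, so that the shares here and against control do not compare genes of equal level. The fall was seen in the core (10 of 14 lower, median -0.20) and in the 19S particle (12 of 17 lower, median -0.14), and 17 of the 24 genes were still called with any single library left out. The other 7, which lost the call without some of the libraries, were Psma1, Psma5, Psmc6, Psmd1, Psmd4, Psmd8 and Psmd12.

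All 3 constitutive catalytic genes fell. Psmb5 was at 32.4, 37.2, 30.7, 35.7 and 35.2 CPM on PLX3397 and at 27.5, 28.4, 27.3, 28.5 and 28.4 CPM after repopulation, with no overlap, and the log2 difference was -0.29 (SE 0.057, edgeR adjusted p = 7.57e-04). Psmb6 was at 38.4, 44.8, 36.8, 39.4 and 37.04 CPM on PLX3397 and at 31.7, 35.1, 31.5, 33.4 and 31.4 CPM after repopulation, again without overlap, and changed by -0.27 (SE 0.059, edgeR adjusted p = 0.00219). Repopulation libraries of both genes varied little among themselves, and PLX3397 library 2 was the highest of its group in both.

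Psmb7 was at 37.6, 46.1, 38.5, 44.4 and 43.2 CPM on PLX3397 and at 35.5, 35.4, 37.8, 36.4 and 35.4 CPM after repopulation. Here PLX3397 library 1 lay below repopulation library 3, so that the groups overlapped, and the log2 difference was -0.22 (SE 0.056, edgeR adjusted p = 0.00885). Psmb5 shares 109 bp with the microRNA gene Mir686 on its own strand, and Psmb7 shares 405 bp with Nek6.

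In the alpha ring, which forms the gate of the core, 4 of 7 genes fell (Psma1, Psma2, Psma5 and Psma6). Psma2 was at 52.03, 56.7, 51.98, 52.04 and 47.8 CPM on PLX3397 and at 44.7, 43.5, 41.5, 46.2 and 44.6 CPM after repopulation. The groups did not overlap, and the log2 difference was -0.24 (SE 0.045, edgeR adjusted p = 4.67e-04). Among the 4 structural beta genes, Psmb1, Psmb2 and Psmb4 fell by 0.21, 0.19 and 0.24 on the log2 scale, and Psmb3 was not called at -0.15.

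In the lid of the 19S particle 5 of 8 genes fell (Psmd7, Psmd8, Psmd12, Psmd13 and Psmd14). Psmd14 encodes the metalloprotease that cuts ubiquitin chains from the substrate. It was at 59.1, 60.97, 56.9, 60.9 and 57.00 CPM on PLX3397 and at 48.8, 52.7, 50.7, 47.3 and 48.9 CPM after repopulation, without overlap, and it changed by -0.25 (SE 0.040, edgeR adjusted p = 7.69e-05). Its lid partner Psmd7, which pairs with it in the active heterodimer, was at 81.3, 79.5, 83.6, 84.04 and 77.04 CPM and then at 74.4, 73.4, 68.3, 71.05 and 67.4 CPM, also without overlap, and changed by -0.19 (SE 0.037, edgeR adjusted p = 6.26e-04).

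Of the 6 ATPase genes, 4 fell (Psmc1, Psmc3, Psmc5 and Psmc6). Psmc3 was at 114, 118, 105, 118 and 109 CPM on PLX3397 and at 95.8, 99.995, 96.8, 99.4 and 91.9 CPM after repopulation, with a log2 fold change of -0.22 (SE 0.037, edgeR adjusted p = 1.27e-04). Psmc5 was at 86.01 to 92.9 CPM after repopulation, below all PLX3397 libraries (99.1 to 106 CPM), and changed by -0.19 (SE 0.036, edgeR adjusted p = 6.35e-04). Neither gene's groups overlapped, and Psmc3 shares 215 bp of exon with Slc39a13. All 3 non-ATPase subunits of the base fell: the scaffolds Psmd1 and Psmd2 and the ubiquitin receptor Psmd4, with log2 fold changes of -0.10, -0.13 and -0.11.

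Of the 4 activators 1 fell, Psme3, which encodes a nuclear activator, by 0.12 on the log2 scale. Of the 3 chaperones of the base 1 fell, Psmd5, by 0.16. None of the 4 chaperones of the core was called by edgeR or DESeq2, and 2 were lower at an unadjusted p under 0.05. Psme1 and Psme2, the interferon-inducible activator pair, had log2 fold changes of 0.04 (95% interval -0.09 to 0.18) and -0.0034 (-0.19 to 0.18).

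Other cell types moved in the same comparison. The 8 microglial markers were all higher, all 5 oligodendrocyte markers were lower (summed CPM 4153 to 5083 on PLX3397 and 3555 to 4244 after repopulation), and 3 of 5 astrocyte markers were lower (1015 to 1097 and 887 to 940). All 4 markers of oligodendrocyte precursors were higher (31.5 to 54.1 and 100.3 to 113) and 2 of 4 endothelial markers were higher (107 to 121 and 126 to 135). The part of these changes in the proteasome result was not tested. None of the 6 neuronal markers was called in this comparison by edgeR or DESeq2, and 0 had an unadjusted p under 0.05, with summed CPM of 6484 to 7414 on PLX3397 and 6637 to 7023 after repopulation.

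**Figure D3:**
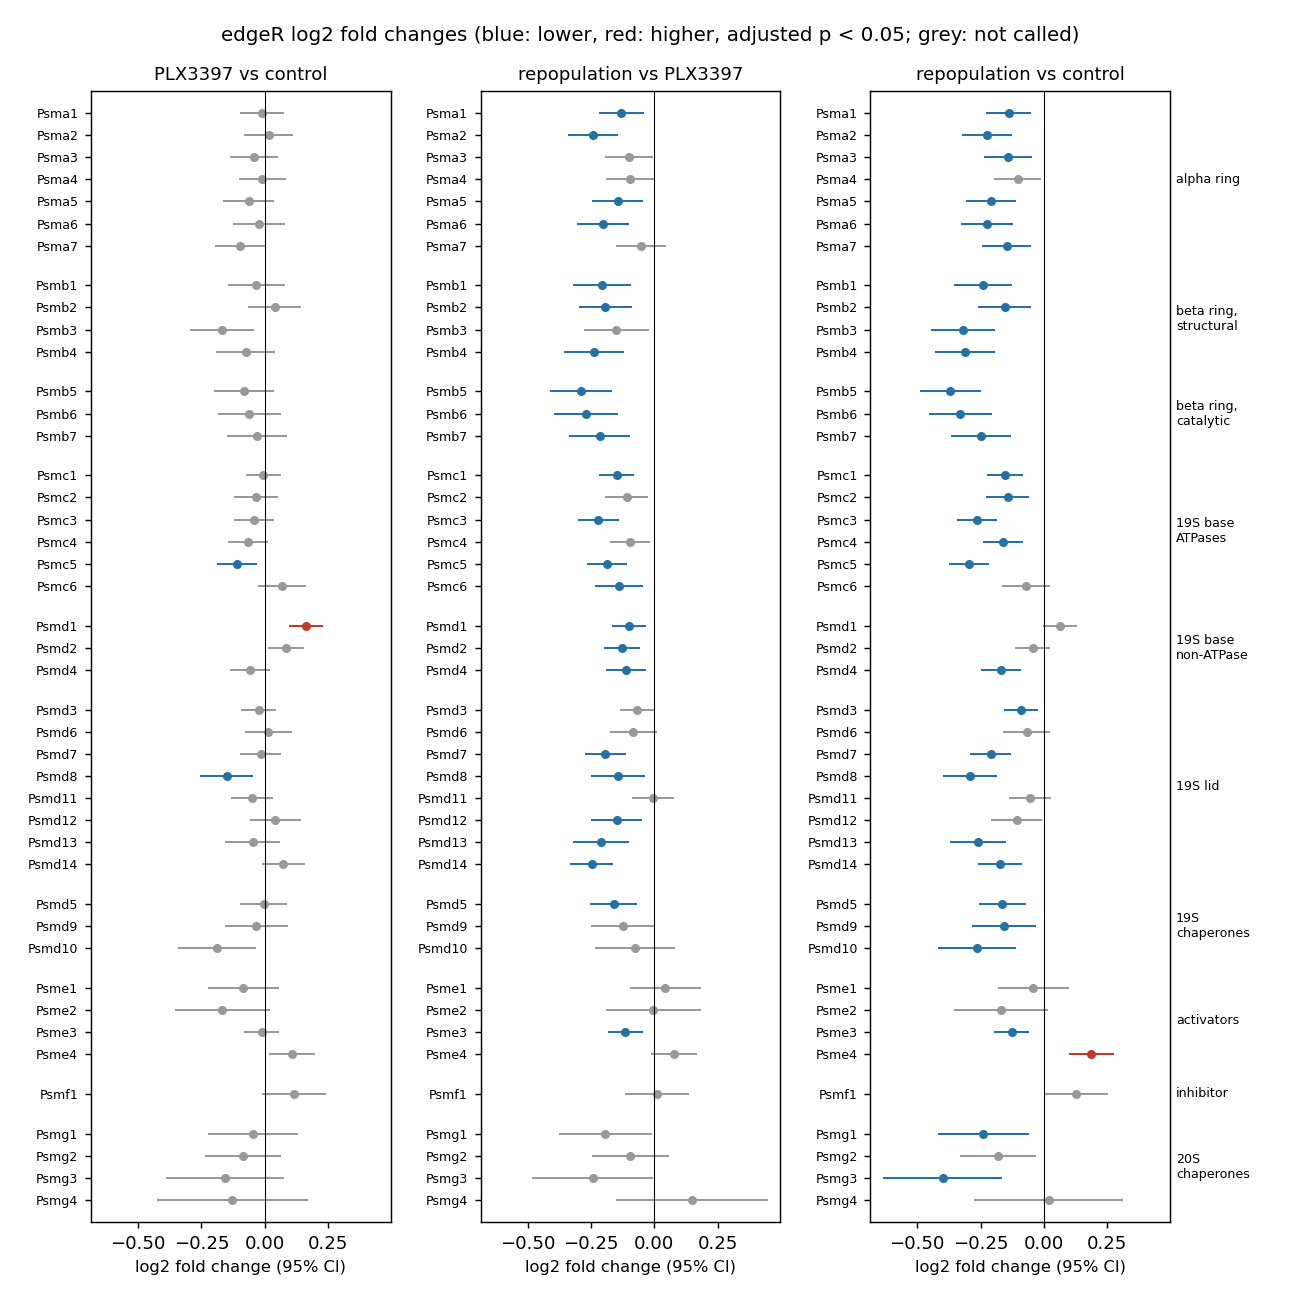
Log2 fold change of each tested proteasome gene in the 3 comparisons, with 95% intervals, in blue for genes called lower, red for genes called higher and grey for genes not called at an adjusted p under 0.05. For PLX3397 against control 1 point is red and 2 are blue. For repopulation against PLX3397 24 points are blue, and for repopulation against control 30 are blue and 1, Psme4, is red.

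The third comparison, repopulation against control, asks whether the cortex was back at its untreated state after 9 days without the drug. Most proteasome genes were below it. Of 43 members, 30 were lower and 1 was higher, against 15.2% of all genes tested called lower and 13.9% called higher. The median log2 fold change was -0.17, which is 89.2% of the control level, against 0.0074 over all genes tested. With any single library left out, 25 of the 30 lower genes were still called, and Psma3, Psmb2, Psmd3, Psmd9 and Psmg1 were not. In 24 members all repopulation libraries lay below all control libraries, and in 2, Psmd1 and Psme4, all lay above, where the shares of all genes tested were 11.8% and 10.5%. This comparison shares its repopulation libraries with the second and its control libraries with the first, so that the 3 sets of calls are not independent of each other.

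The summed level shows the size of the change in each mouse. The 43 genes summed to 2453 to 2567 CPM in control (2507 ± 49.2, SD, n = 5), to 2424 to 2568 CPM on PLX3397 (2493 ± 58.8) and to 2245 to 2325 CPM after repopulation (2273 ± 31.4). Every repopulation library lay below every library of the other groups. Over the 14 core genes, the median log2 difference from the control mean was -0.23 to -0.21 in the repopulation libraries, -0.09 to 0.07 on PLX3397 and -0.09 to 0.06 in control. Repopulation libraries were thus close to each other, and the sum was lower in 5 of 5 of them.

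In the 20S core 13 of 14 genes were lower, with a median of -0.22. Only Psma4 was not called, at -0.10 (SE 0.044, edgeR adjusted p = 0.0768). Psmb5 was at 38.7, 36.1, 39.4, 32.8 and 33.5 CPM in control, and its repopulation libraries, given above, all lay below these values, at 77.4% of the control level, with a log2 fold change of -0.37 (SE 0.056, edgeR adjusted p = 2.59e-05). With length and GC trends taken out, the fall of Psmb5 was smaller, at -0.24, and still called. Psmb6 was at 44.3, 42.3, 43.3, 37.4 and 37.2 CPM in control, which no repopulation library reached, and changed by -0.33 (SE 0.059, edgeR adjusted p = 1.41e-04). Psmb7 was at 46.9, 43.4, 43.6, 40.8 and 39.1 CPM in control, also without overlap, and changed by -0.25 (SE 0.056, edgeR adjusted p = 0.00146).

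All 4 structural beta genes were lower, with a median of -0.28. Psmb4 was at 63.1, 56.3, 61.1, 55.8 and 53.6 CPM in control and at 47.9, 47.1, 45.3, 45.8 and 47.8 CPM after repopulation. Its groups did not overlap, and it changed by -0.31 (SE 0.055, edgeR adjusted p = 1.27e-04), or by -0.21 with length and GC trends taken out. The alpha ring had 6 of 7 genes lower, with a median of -0.15 and single values from -0.23 for Psma2 to -0.14 for Psma1 and -0.14 for Psma3 among those called. Whether beta and alpha genes differed in the size of their fall was not tested.

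In the 19S particle 11 of 17 genes were lower and 0 were higher by edgeR and by DESeq2, with 1 higher at an unadjusted p under 0.05, and the median was -0.15. Psmc5 had the smallest adjusted p of all members. Its repopulation libraries, at 86.01, 92.9, 90.2, 90.5 and 88.6 CPM, were all below the control libraries given above, and it changed by -0.30 (SE 0.036, edgeR adjusted p = 2.46e-06). Psmc3 was at 112 to 119 CPM in control and 91.9 to 99.995 CPM after repopulation and changed by -0.26 (SE 0.037, edgeR adjusted p = 1.12e-05). With length and GC trends taken out, Psmc5 and Psmc3 were still called at smaller changes of -0.18 and -0.17. Of the ATPase genes only Psmc6 was not called, at -0.07.

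In the lid, Psmd3, Psmd7, Psmd8, Psmd13 and Psmd14 were lower, and Psmd6, Psmd11 and Psmd12 were not called. Psmd8 was at 64.2 to 72.8 CPM in control and at 51.8, 59.6, 57.2, 57.7 and 53.3 CPM after repopulation, without overlap, and changed by -0.29 (SE 0.049, edgeR adjusted p = 7.29e-05). In the base, the ubiquitin receptor gene Psmd4 fell by 0.17 on the log2 scale (-0.10 with length and GC trends taken out). The scaffold genes were not called: Psmd2 was at -0.05 (edgeR adjusted p = 0.320), and Psmd1 was at 127 to 129 CPM, just above all control libraries, with a log2 fold change of 0.06 (SE 0.031, edgeR adjusted p = 0.123). With length and GC trends taken out the Psmd1 value turned to -0.01, again not called.

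All 3 chaperones of the base were lower, Psmd5 by 0.17, Psmd9 by 0.16 and Psmd10 by 0.27 on the log2 scale. Psmd9 shares 1849 bp of exon with Gm26745, and its call was lost without any of 8 single libraries (control 1, 2 or 3, or any repopulation library). Of the chaperones of the core, Psmg1 and Psmg3 were lower and Psmg2 and Psmg4 were not called. Psmg3 had the largest fall of all members in log2 terms, though at a low level. It was at 6.43, 5.43, 7.10, 6.17 and 5.99 CPM in control and at 5.23, 5.02, 4.08, 4.62 and 4.63 CPM after repopulation, without overlap, with a log2 fold change of -0.40 (SE 0.112, edgeR adjusted p = 0.00839). It shares 280 bp with Gm26938 on its own strand.

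Of the 4 activators 1 rose, 1 fell and 2 were not called. Psme4, which encodes a large ATP-independent activator known from DNA repair and histone turnover, was the only member that rose. It was at 68.3, 74.6, 71.4, 73.4 and 69.03 CPM in control, at 78.5, 70.9, 80.9, 73.05 and 81.4 CPM on PLX3397 and at 78.2, 81.3, 80.6, 84.6 and 81.4 CPM after repopulation. Control and repopulation libraries did not overlap, the PLX3397 libraries spanned both, and the log2 fold change of repopulation against control was 0.19 (SE 0.042, edgeR adjusted p = 0.00130). With length and GC trends taken out it was 0.09 and no longer called (edgeR adjusted p = 0.114).

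Psme3 fell by 0.13 on the log2 scale. Psme1 was at 18.3, 18.2, 18.9, 19.2 and 16.1 CPM in control, at 16.2, 19.9, 16.03, 15.8 and 17.8 CPM on PLX3397 and at 17.1, 18.96, 17.1, 17.6 and 17.3 CPM after repopulation, with overlap throughout and a log2 fold change of -0.04 (95% interval -0.18 to 0.09) in the third comparison. Psme2 was at 13.3, 12.9, 13.9, 12.5 and 12.2, then 10.1, 13.6, 10.3, 11.4 and 12.4, then 10.6, 12.8, 10.5, 10.1 and 13.7 CPM in the same order of groups, and its log2 fold change was -0.17 (-0.35 to 0.01). It also overlapped between all groups, and a close copy, Psme2b, is in the table, so that its reads may be split. Psmf1, which encodes an inhibitor of the core, was at 0.13 (edgeR adjusted p = 0.114).

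Marker genes of other cell types also differed here, and their part in the result was not tested. Of the microglial markers 2 of 8 were higher, of the oligodendrocyte markers 2 of 5 were lower (summed CPM 3915 to 4111 in control and 3555 to 4244 after repopulation), of the neuronal markers 3 of 6 were higher and 1 was lower, and of the cortical markers 2 of 5 were lower. Of the astrocyte markers 1 of 5 and of the endothelial markers 1 of 4 was lower, and 1 of 4 precursor markers was higher. Of the choroid plexus markers 0 of 4 were called by edgeR, 1 by DESeq2 and 1 at an unadjusted p under 0.05. Erythroid and germ cell markers gave 0 calls by edgeR, by DESeq2 and at an unadjusted p under 0.05. Choroid plexus genes varied widely between libraries (7.90 to 23.1 summed CPM in control and 8.02 to 541 after repopulation).

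Gene length and base composition bear on counts in bulk RNA, so both were examined for the members. Their median exon length was 2808 bp against 3930 bp over all genes tested, and their median GC content was 49.7% against 49.5%. With the trends of each library over length and GC taken out, 24 of 43 members were lower than on PLX3397 and 24 were lower than in control, and 0 were higher in either comparison, while 14% and 14.2% of all genes tested were called lower and 4.63% and 8.63% higher. Of the calls reported above, 21 of 24 and 23 of 30 were kept. Those lost were Psma1, Psma5 and Psmd12 in the second comparison and Psma5, Psma7, Psmb2, Psmc1, Psmc4, Psme3 and Psmg1 in the third. Genes called only in this fit were Psmc2, Psmd3 and Psmd9 in the second comparison and Psmd11 in the third, all lower. The member medians were then -0.13 and -0.13, against -0.04 and -0.00053 over all genes tested, so that the lower share of all genes rose in the second comparison while the members' count did not. For PLX3397 against control, the corrected fit called Psmd1 and Psmd2 higher and 0 lower (7.91% and 5% of all genes tested), with a member median of 0.02 against 0.03.

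**Figure D4:**
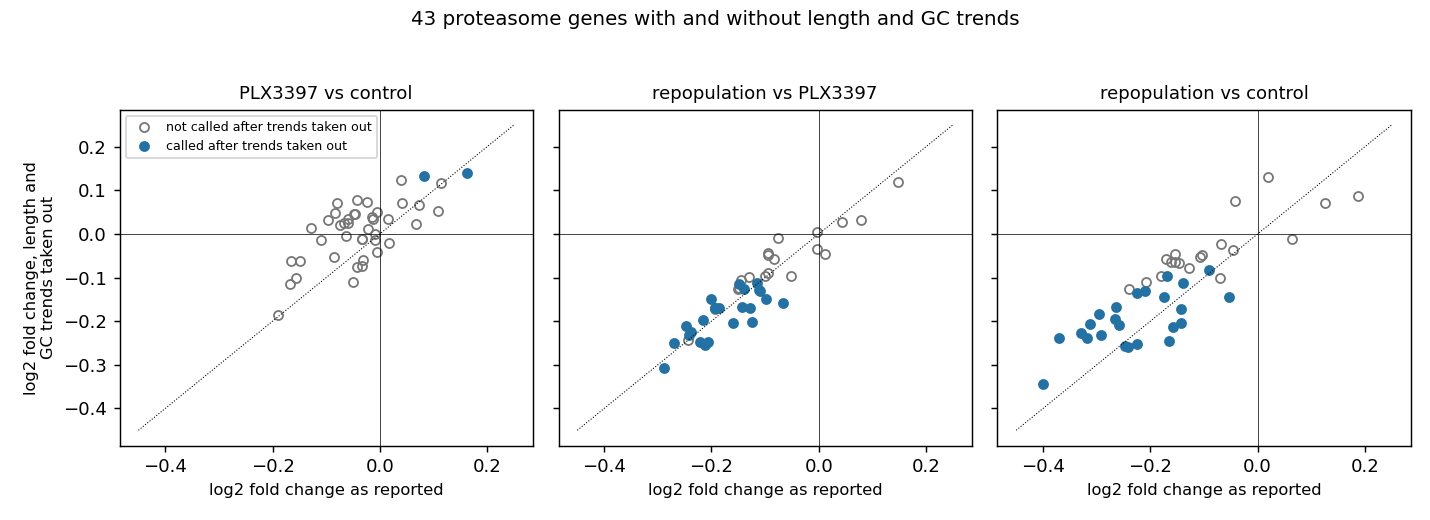
For each of the 43 tested proteasome genes, the log2 fold change as given above (horizontal axis) and with the length and GC trends taken out (vertical axis) in the 3 comparisons, with filled blue points for genes called in either direction after the trends were taken out and a dotted line where both are equal. The 2 filled points of PLX3397 against control are higher calls, and the 24 filled points in each of the other panels are lower calls.

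The interferon-inducible subunits replace the constitutive ones in immunoproteasomes, so their counts were set against those of their partners. Psmb8 counts were 4.12, 6.04, 2.96, 5.35 and 5.88% of the Psmb5 counts in control, 2.53, 2.65, 1.93, 3.35 and 1.83% on PLX3397 and 6.86, 7.30, 8.83, 6.11 and 10.8% after repopulation. Repopulation libraries were thus all above every other library. On the log2 scale, with 0.5 added to each count, the ratio differed from control by -0.95 on PLX3397 (exact two-sided permutation p = 0.0159, adjusted over 9 tests 0.0286, n = 5 and 5). It differed by 1.68 between repopulation and PLX3397 and by 0.73 between repopulation and control (each exact permutation p = 0.00794, the smallest that 252 splits can give, adjusted 0.0179). Without control library 3 the last difference was 0.56 and its adjusted p was 0.0571.

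These ratios rest on 15 to 88 Psmb8 reads per library. Psmb8 itself was lower on PLX3397 than in control, at -1.01 (SE 0.219, edgeR adjusted p = 0.00198), and was higher after repopulation than on PLX3397, by 1.38 (SE 0.215, edgeR adjusted p = 4.64e-05), where Psmb5 was at -0.08, not called, and -0.29, called. In the last comparison Psmb8 was at 0.37 (edgeR adjusted p = 0.161), which was not called, and Psmb5 at -0.37, which was. Psmb9 counts were 1.85, 2.53, 1.58, 2.51 and 2.54% of the Psmb6 counts in control, 1.94, 1.49, 1.70, 1.21 and 0.581% on PLX3397 and 4.04, 3.00, 5.18, 3.19 and 3.77% after repopulation, again highest in all repopulation libraries. The log2 ratio differed by -0.72 (exact permutation p = 0.0476, adjusted 0.0714), 1.51 and 0.79 (each exact permutation p = 0.00794, adjusted 0.0179) in the order of the comparisons above. Psmb9 had 5 to 44 reads per library, the fewest in PLX3397 library 5, without which the first of these differences was -0.45. Psmb9 itself was at -0.67 on PLX3397 (edgeR adjusted p = 0.0725), not called, higher after repopulation than on PLX3397 by 1.15 (SE 0.247, edgeR adjusted p = 0.00174), and at 0.48 against control (edgeR adjusted p = 0.121), not called. Psmb8 shares 498 bp of exon with Gm20496 and Psmb9 shares 212 bp with Tap1.

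For Psmb10 no difference of the ratio passed the test. Its counts were 42.8, 45.3, 47.8, 47.5 and 48.9% of the Psmb7 counts in control, 46.8, 36.7, 43.9, 43.9 and 35.02% on PLX3397 and 38.8, 46.4, 39.3, 41.5 and 45.7% after repopulation, and the groups overlapped. The log2 ratio differed by -0.18, 0.04 and -0.14, with exact permutation p-values of 0.0873, 0.690 and 0.0714 (adjusted 0.0982, 0.690 and 0.0918). Psmb10 itself was lower after repopulation than in control, at -0.38 (SE 0.064, edgeR adjusted p = 7.44e-05), or -0.25 with length and GC trends taken out. Against PLX3397, Psmb10 was at -0.17 after repopulation (edgeR adjusted p = 0.0648), not called, where Psmb8 and Psmb9 were higher. With length and GC trends taken out it was at -0.18 and called lower (edgeR adjusted p = 0.0358). On PLX3397 it was lower at -0.20 (SE 0.063, edgeR adjusted p = 0.0277), a call that was lost with these trends taken out (-0.06) and without control 1 or 3 or PLX3397 library 3 or 5.

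**Figure D5:**
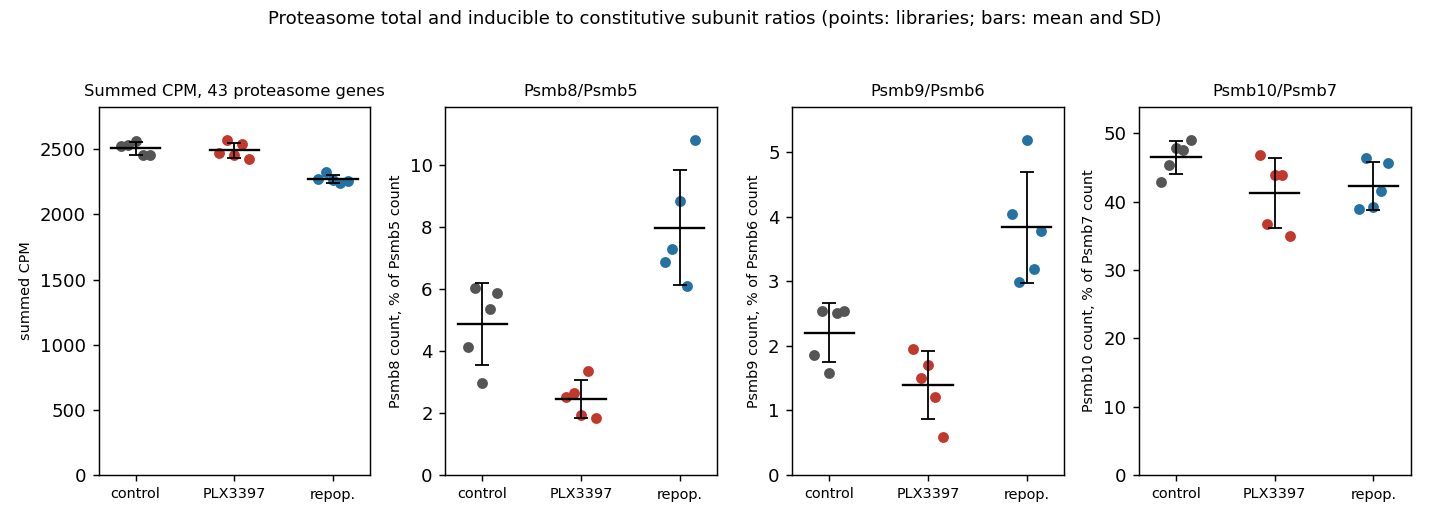
The first panel gives the summed CPM of the 43 proteasome genes per library, and the others give the count of each inducible catalytic gene in percent of the count of its constitutive partner, with 5 libraries per group, the mean and the SD, on axes that start at 0. Repopulation libraries are lowest in the first panel and highest in the Psmb8 and Psmb9 panels, and the groups overlap in the Psmb10 panel.

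Genes that work with the proteasome moved in both directions. A list of 28 partner and regulator genes (of 29 listed, as 1 was not found in the table) and 6 genes of ubiquitin and its activating enzymes was examined. On PLX3397, 9 of these 34 were higher and 2 were lower (median 0.02), of which 8 and 2 were among the 28 partners, while 8.19% of all genes tested were called higher and 8.35% lower. Usp14, a deubiquitinase bound to the 19S base, was at 116 to 125 CPM in control and 130.1 to 141 CPM on PLX3397, without overlap, and changed by 0.17 (SE 0.034, edgeR adjusted p = 0.00131). With length and GC trends taken out, Usp14 was at 0.09 and no longer called (edgeR adjusted p = 0.0541). Uba1, the main ubiquitin-activating enzyme, changed by 0.13 (SE 0.028, edgeR adjusted p = 0.00171), and AI314180, which encodes the proteasome adaptor ECPAS, changed by 0.16 (SE 0.030, edgeR adjusted p = 6.08e-04). Pomp, the chaperone that matures the beta rings, was lower at -0.16 (SE 0.050, edgeR adjusted p = 0.0337). The Pomp call was lost with length and GC trends taken out (edgeR adjusted p = 0.0665) and without control 1, 3 or 5 or PLX3397 library 1, 3, 4 or 5 (log2 fold changes of -0.19 to -0.13 over all libraries left out in turn).

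After repopulation, 3 of the 34 were higher and 7 were lower than on PLX3397 (median -0.07), where 7.61% and 8.98% of all genes tested were called. Against PLX3397 the count depended on the fit, with 1 higher and 16 lower when length and GC trends were taken out (4.63% and 14% of all genes tested), and 0 to 2 higher and 4 to 10 lower with single libraries left out. Against control, 6 were higher and 10 lower (median -0.01), where 13.9% and 15.2% of all genes tested were called, and 2 to 7 were higher with single libraries left out, the fewest without control library 3. Ubb, which encodes a ubiquitin chain, was at 252, 224, 249, 238 and 237 CPM in control, at 225, 255, 213, 240.4 and 215 CPM on PLX3397 and at 187, 203, 191, 189 and 193 CPM after repopulation. All repopulation libraries lay below all others, with log2 fold changes of -0.26 (SE 0.044, edgeR adjusted p = 1.83e-04) against PLX3397 and -0.32 (SE 0.044, edgeR adjusted p = 1.02e-05) against control. The second of these was -0.20 in the fit corrected for length and GC content. Rps27a, which encodes ubiquitin fused to a ribosomal protein, changed by -0.22 (SE 0.052, edgeR adjusted p = 0.00414) and -0.36 (SE 0.052, edgeR adjusted p = 1.65e-05) in the same order.

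Uba1 was higher than in control after repopulation, by 0.08 on the log2 scale. Pomp was at -0.10 (edgeR adjusted p = 0.219) against PLX3397, or -0.15 and called with length and GC trends taken out (edgeR adjusted p = 0.0432), and was lower than in control at -0.25 (SE 0.050, edgeR adjusted p = 4.43e-04). Txnl1, a thioredoxin-like protein bound to the 19S particle, was lower than on PLX3397 at -0.16 (SE 0.043, edgeR adjusted p = 0.0107). AI314180 was above control at 0.19 (SE 0.030, edgeR adjusted p = 4.48e-05).

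Nfe2l1, the gene of the transcription factor NRF1, ranged over 372 to 414 CPM in the controls, 375 to 414 CPM with PLX3397 and 386 to 399 CPM in repopulated cortex. Without a correction for length and GC it was not called in any comparison, with log2 fold changes of 0.01, -0.0076 and 0.0062 and a 95% interval in the third of -0.06 to 0.08. With length and GC trends taken out, Nfe2l1 was called higher on PLX3397 at 0.10 (edgeR adjusted p = 0.0291) and lower after repopulation than on PLX3397 at -0.10 (edgeR adjusted p = 0.0202), and was not called against control. In that fit the median over all genes tested lay in the same directions, at 0.03 on PLX3397 and -0.04 after repopulation against PLX3397. Adrm1, a ubiquitin receptor of the 19S particle whose symbol lies outside the pattern, was at -0.06, -0.01 and -0.07 in the 3 comparisons and was not called. Sem1, the other listed 19S subunit outside the pattern, was not called on PLX3397 at -0.05. After repopulation Sem1 was lower than on PLX3397 at -0.23 (SE 0.073, edgeR adjusted p = 0.0269). Against control it was lower at -0.28 (SE 0.072, edgeR adjusted p = 0.00391). Its libraries overlapped in each comparison. Both Sem1 calls were kept with length and GC trends taken out, at -0.22 and -0.29.

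Promoters of the members were examined because so many of these genes moved together. RefSeq windows of 250 bases before to 50 bases after the start were found for 37 of the 45 genes, in 40 windows, and not for Psma8, Psmb1, Psmb2, Psmb7, Psmc3, Psmd3, Psmd7 and Psmg2. The ETS core CGGAAG, on either strand, was in 23 of 40 windows (57.5%), against 16.9% of all 32851 windows and 26.4% of the 16118 windows of tested genes. It stands in capitals in the Psmd14, Psmd1 and Psme4 sequences above, 114, 72 and 52 bases before the RefSeq start. In Psmd1 this match lies after the start that GENCODE M21 gives. The median log2 fold change of repopulation against control was -0.15 in the 21 tested genes with this core and -0.17 in the 15 without it.

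The short core of the antioxidant response element, TGACNNNGC, to which NRF1 dimers are known to bind, was in 6 windows (15%, against 12.4% of all windows and 14% of those of tested genes). These were Psmb5, Psmb6, Psmc6, Psmd9, Psmd12 and Psme4. In the Psmb5 and Psmb6 sequences above it stands 47 and 9 bases before the start, and in Psme4 it reaches past the bases printed. The longer form TGACTCAGC was in 0 windows, against 0.454% of all. The core of the interferon-stimulated response element was in 5 windows (12.5%, against 3.44% of all and 3.01% of those of tested genes), those of Psmb3, Psmd4, Psmd9, Psme1 and Psmg4.

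Other letters searched were near or below their shares in the windows of tested genes. CCAAT was in 32.5% of member windows against 37.1%, the GC box GGGCGG in 57.5% against 57.8%, the TATA box TATAAA in 7.5% against 7.67% and the E-box CACGTG in 7.5% against 9.16%. The cAMP response element TGACGTCA and a long palindromic form of the E-box were in 0 of the 40 windows, against 2.76% and 0.558%. A match of these letters is a description of the sequence and not a binding site, and the stretches that match different motifs can overlap.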

How the data were processed

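Gene-level raw counts of 15 cortex libraries were analysed as the authors deposited them. STAR, DESeq2, DESeq, FastQC and MultiQC are named, with the mm10 genome, per the submitters' processing notes. Which counter and annotation were used, and whether by strand, is not given in the sources used here. Counts of 23413551 to 48617851 per library were tested with edgeR 4.0.16 (R 4.3.3): filterByExpr, TMM scaling, robust quasi-likelihood F test on all 15 libraries in 1 fit, with Benjamini-Hochberg adjustment over 18369 genes and a threshold of 0.05. The SE is the absolute log2 fold change over the square root of F. Ratios of gene pairs were compared by exact permutation. As alternatives, DESeq2 1.42.0, its size factors, no filter, the 2 groups alone, a replicate block, offsets for length and GC, and each library left out in turn were tried. Positions, exon lengths and GC came from GENCODE M21 on GRCm38, which is mm10, and promoters from RefSeq on GRCm38.p6. In simulated counts for repopulation against control over 18369 genes, changes of 0.2 and 0.4 on the log2 scale were put into 100 genes each. Of these, 41% and 96% were recovered, and 6.80% of calls were false. The changed genes were drawn above a floor on mean CPM that Psmg1, Psmg3, Psmg4, Psmb8 and Psmb9 do not reach, so the rates do not cover those. Far fewer genes were changed than the 2548 higher and 2797 lower calls of the data, so the false share may differ there. Replicate libraries of a group differed by more than sampling noise.

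The members, the partner and ubiquitin lists and the cell type markers were chosen with earlier results of these data known. Every member is accounted for. Values are given in detail for the 3 catalytic genes, Psme1, Psme2 and, in each comparison, up to 5 higher and 5 lower members of smallest adjusted p and the 3 of largest change, for Psmb8, Psmb9 and Psmb10, and for Nfe2l1, Pomp, Adrm1 and up to 3 further genes per comparison of the partner and ubiquitin lists. Other genes named were chosen after their values were seen. Some genes of the ubiquitin list are not reported here by name.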

Additional observations from a re-analysis of the deposited data

Results flagged for a closer look

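A search for single libraries far from the rest of their group covered 87 groups of 5 libraries (each named gene in each condition) and found 3. By chance about 1 in 20 groups would be found. Psme1, of the interferon-inducible activator pair, was at 18.96 CPM in repopulation library 2, where the others were at 17.1 to 17.6 CPM. Pomp, the beta-ring chaperone, was at 52.3 CPM in PLX3397 library 2 and at 45.8 to 47.5 CPM in the others of that group. Psmg3, the alpha-ring chaperone, was at 3.95 CPM in PLX3397 library 1 and at 5.85 to 6.24 CPM in the others.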

How the results depend on the processing

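The lower calls after repopulation held under most settings. Of 24 lower members against PLX3397, 16 were kept under every fit compared (each library left out, length and GC, DESeq2, replicate block), and of 30 against control, 18. The fewer calls of PLX3397 against control moved most: for members DESeq2 called 5 (2 higher), the 2 groups alone 1 (0 lower), and the length and GC offsets 2 higher and 0 lower, also with the replicate block. After repopulation against control, these offsets left 0 higher, also with the block. For partner and ubiquitin genes on PLX3397, no filter gave 5 higher and 4 lower and the offsets 1 lower. Against PLX3397, no filter gave 5 calls with 0 higher, and the offsets gave 17 calls, 1 higher and 16 lower. Against control, no filter gave 3 higher. The cause was not tested.

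With the offsets, some log2 fold changes that were not called turned in sign. On PLX3397, Psmb5 was at 0.070, Psmb6 at 0.025, Psme1 at 0.049 and Adrm1 at 0.043. Psme2 was at 0.0055 against PLX3397, and against control Psme1 was at 0.075, Psmd1 at -0.011 and Nfe2l1 at -0.00058. With offsets and replicate block, Psmb5 was at 0.070, Psmb6 at 0.025, Psme1 at 0.047 on PLX3397, Psme2 at 0.0022 against PLX3397 and Psme1 at 0.074 against control.

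With each library left out in turn, member calls on PLX3397 ran from 1 to 6 (higher 1 to 3, lower 0 to 3), the most without PLX3397 library 2, and members higher than control after repopulation from 1 to 2. Partner and ubiquitin calls ran from 5 to 11 on PLX3397 (higher 5 to 9, lower 0 to 3), from 5 to 11 against PLX3397 (higher 0 to 2, lower 4 to 10) and from 2 to 7 higher against control. The Psmb8/Psmb5 ratio against control ran from 0.56 to 0.82, Psmb9/Psmb6 on PLX3397 from -0.86 to -0.45, and Psmb10/Psmb7 from -0.23 to -0.12 on PLX3397 and from -0.015 to 0.089 against PLX3397. Changes of sign occurred for Psmb7 on PLX3397 (-0.068 to 0.0049), Psme2 against PLX3397 (-0.072 to 0.060) and Nfe2l1 (-0.0074 to 0.035 on PLX3397, -0.029 to 0.0096 against PLX3397, -0.016 to 0.027 against control).

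Mouse numbers did not pair the samples: the deviations of same-numbered libraries correlated at -0.13 to 0.10 in 15 pairs, 1 of them over 0.1, and 1 of 15 libraries correlated best with its own number. With the number as a replicate block, 1 member was lower on PLX3397, 21 of the 24 and 29 of the 30 lower calls after repopulation were kept, and other member counts stayed within 1.5 times. Depth limits Psma8 and Psmb11, at 3 to 13 reads per library, and the Psmb8 and Psmb9 values, at 15 to 88 and 5 to 44.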
